A study of Mus musculus with 11 samples.

Results

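The genes Ces1d, Ces1f, Dgat2 and Stard10, which act in the hydrolysis, synthesis and transfer of lipids, were followed in the ventricles of mice whose hearts overexpress angiotensin II. These 4 genes, of 8106 named genes tested, were selected by symbol because their values in the comparisons below were already known to be low in dilated hearts. Each is represented by 1 spot of a printed cDNA array. The differences between groups that served for this choice are therefore given as a description, with no test, and support nothing.

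All 12 mice were males of about 60 weeks from the TG1306/1R line, labelled as C57/BL6. The line is known to carry an angiotensinogen transgene driven by a cardiomyocyte promoter, so that angiotensin II, a peptide that raises blood pressure and promotes growth of the heart, is made in the heart itself. The 4 wild-type mice (WT, -/-) were littermates without the transgene. The 4 hypertrophic (Hyp) and the 4 dilated (Dil) mice were all heterozygous carriers (+/-) and differed in the shape of the heart, Hyp having concentric hypertrophy and Dil enlarged chambers. Carrier hearts had been chosen by genotype, heart weight, the shape of the chambers and how strongly markers of hypertrophy were expressed, so Hyp and Dil were separated by phenotype and not by an assigned treatment. None of the groups received a treatment.

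The weight of the heart per gram of body weight averaged 4.53 ± 0.287 mg among WT mice, 5.54 ± 0.180 mg among Hyp mice and 8.23 ± 0.665 mg among Dil mice (SD, n = 4 per group). The labels give the third Hyp mouse an index of 5.3 mg/g on one array and 5.6 mg/g on another, and their mean was used. RNA came from the right and left ventricles and the septum of single mice. Each of the 11 arrays compared the RNA of 2 mice that carry the same number, called a set here. WT was compared with Hyp on 4 arrays and Hyp with Dil on 4. WT was compared with Dil on 3, in sets 1, 3 and 4, and this array of set 2 was not analysed here.

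A value is the log2 ratio of 2 hearts on 1 array, so −1 means that the signal in one heart was lower by a factor of 2. The ratios give differences between hearts and no levels. Ratios were read with Cy5 on top and Cy3 below, a direction that is likely but stated by no source used here. With this direction Agt, the angiotensinogen gene, was higher than in WT by 2.15 ± 0.40 in Dil and 2.09 ± 0.40 in Hyp (log2 ± standard error, SE), and Nppb, a marker of cardiac stress, by 2.53 ± 0.32 and 1.03 ± 0.30. The opposite direction would turn every sign printed here. The column of the WT and Hyp array of set 1 had displaced rows and was realigned, which left Ces1f without a value on that array. In RNA from whole ventricles, fewer cells of a type and less RNA per cell cannot be told apart.

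Cells store fatty acids as triglyceride in lipid droplets. Diacylglycerol acyltransferases such as Dgat2 complete the synthesis of triglyceride, and lipases and esterases release the fatty acids again. The heart burns fatty acids as its main fuel, and fatty acids that enter a cardiomyocyte can pass through the triglyceride pool before they are oxidised. Ces1d, also called triacylglycerol hydrolase, is an esterase of the endoplasmic reticulum best known from liver and adipose tissue, and Ces1f is a paralog in the same gene cluster. Stard10 belongs to the START domain proteins, which carry a lipid in a hydrophobic pocket from one membrane to another, and it binds phosphatidylcholine and phosphatidylethanolamine.

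All 4 genes were lower in Dil than in WT. The fitted log2 difference, which combines the direct arrays with those that run through Hyp, was −2.37 ± 0.28 for Ces1d, −1.28 ± 0.18 for Ces1f, −1.11 ± 0.12 for Stard10 and −0.90 ± 0.20 for Dgat2 (SE, 4 mice per group, 10 arrays for Ces1f and 11 for the others). As levels relative to WT these are 80.6%, 58.8%, 53.8% and 46.6% lower. Ces1d had the lowest value of the 8106 genes, Ces1f ranked 3, Stard10 ranked 4 and Dgat2 ranked 10 from the bottom. At an adjusted p under 0.05 in the fit over all 12097 features (limma, Benjamini-Hochberg), 257 features or 2.12% passed in Dil minus WT, and 138 or 1.14% were lower. The 4 genes were among these 138, but since they were picked on this contrast nothing is read from the count.

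**Figure D1:**
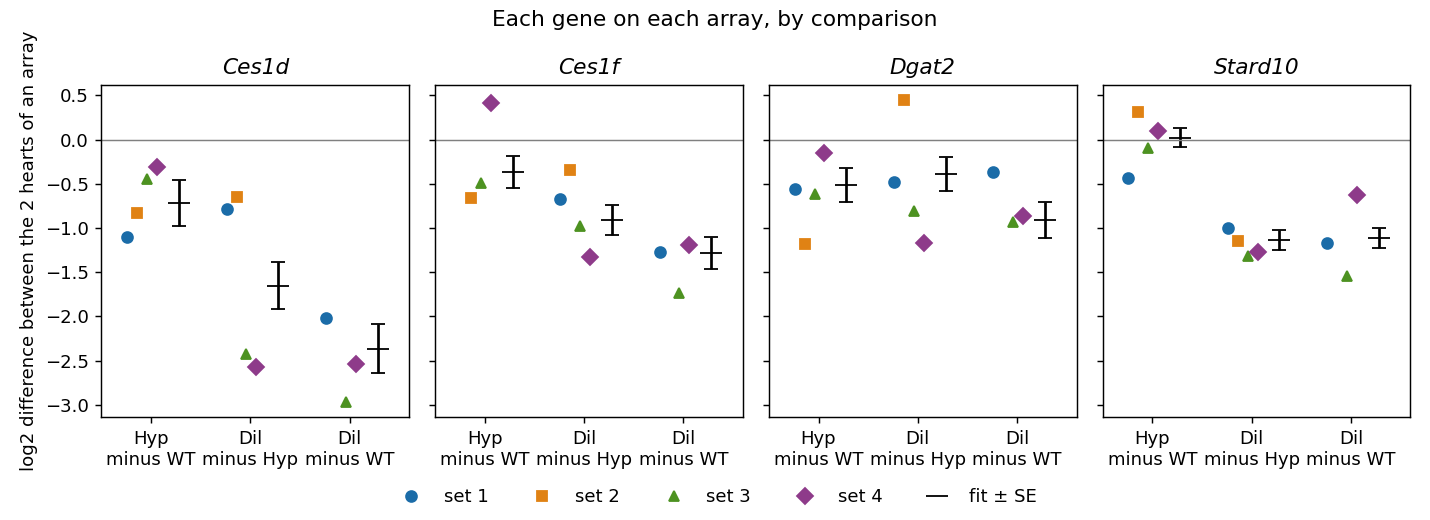
The log2 difference between the 2 hearts of each array is plotted for the 4 genes, by comparison, with 1 symbol per set, and the bars give the fitted difference ± SE. In Dil minus WT all 3 arrays lie below 0 for each gene, from −0.37 for Dgat2 in set 1 to −2.97 for Ces1d in set 3, whereas Stard10 in Hyp minus WT lies on both sides of 0.

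Ces1d, the triacylglycerol hydrolase, measured −2.02 in set 1, −2.97 in set 3 and −2.54 in set 4 on the arrays that compared Dil with WT directly. On the WT and Hyp arrays it measured −1.10, −0.83, −0.44 and −0.31 in sets 1 to 4. On the Hyp and Dil arrays it measured −0.78, −0.65, −2.42 and −2.57. Hyp was thus below WT, and Dil below Hyp and below WT, on all 11 arrays.

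The path from WT to Dil differed between sets. In sets 1 and 2 the larger part of the Ces1d difference lay between WT and Hyp, whereas in sets 3 and 4 most of it lay between Hyp and Dil. The Hyp and Dil values of sets 3 and 4 were separated from those of sets 1 and 2 by more than the range within either pair. These arrays also had a wider spread over all spots: the median absolute deviation of the ratios was 0.236 and 0.250 on the Hyp and Dil arrays of sets 3 and 4, against 0.127 and 0.169 in sets 1 and 2. Its part in the difference between sets was not tested.

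Ces1f, the paralog of Ces1d, measured −1.27, −1.74 and −1.19 on the direct Dil and WT arrays of sets 1, 3 and 4. On the Hyp and Dil arrays it measured −0.67, −0.35, −0.98 and −1.33 in sets 1 to 4. On the WT and Hyp arrays it measured −0.66 in set 2, −0.49 in set 3 and 0.41 in set 4. The heart of Dil was the lower one on all 7 of its arrays, and Hyp was lower than WT on 2 of the 3 arrays that could be read.

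Ces1f differed less than Ces1d on each of the 3 direct Dil and WT arrays, with Ces1d minus Ces1f at −0.75, −1.24 and −1.34. Between Hyp and WT the paralogs were closer, with Ces1d minus Ces1f at −0.17, 0.05 and −0.72 in sets 2, 3 and 4. Printed cDNA clones are long, and transcripts of related genes can bind to the same spot; how much each of these spots reads of the other paralog was not tested. For the other members of the cluster with a spot, Ces1b and Ces1g, Dil minus WT was 0.10 ± 0.08 and 0.10 ± 0.05, and neither passed the test. The ratios do not show whether the transcripts of Ces1b and Ces1g were present. Of the 20 carboxylesterase genes listed, 4 were measured.

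Dgat2, which adds the last fatty acid in triglyceride synthesis, measured −0.37, −0.93 and −0.86 on the direct Dil and WT arrays of sets 1, 3 and 4. On the WT and Hyp arrays it measured −0.55, −1.18, −0.62 and −0.15 in sets 1 to 4. On the Hyp and Dil arrays it measured −0.48, 0.45, −0.81 and −1.17. Hyp was lower than WT on all 4 arrays, and the Hyp and WT values overlapped with the Dil and WT values. In set 2 the Hyp heart was the lower of the carrier hearts, and in the other 3 sets the Dil heart was.

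Stard10, the phospholipid transfer protein, measured −1.17, −1.54 and −0.62 on the direct Dil and WT arrays of sets 1, 3 and 4. On the Hyp and Dil arrays it measured −0.995, −1.15, −1.32 and −1.28 in sets 1 to 4, the narrowest range of the 4 genes in that comparison. On the WT and Hyp arrays it measured −0.44, 0.31, −0.10 and 0.10, with 2 arrays on each side of 0. The Hyp hearts thus lay on both sides of the WT hearts, and the Dil heart was the lower one on each array that included it.

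Among the sequences supplied by RefSeq, Stard10 was the 1 gene of the 4 with a promoter entry, and it is shown for that reason. The 250 bases before its start, on the plus strand of chr7:101316836-101317085 in build GRCm38.p6, are printed with a match to TAAACA, a forkhead factor motif, in capitals.
Stard10: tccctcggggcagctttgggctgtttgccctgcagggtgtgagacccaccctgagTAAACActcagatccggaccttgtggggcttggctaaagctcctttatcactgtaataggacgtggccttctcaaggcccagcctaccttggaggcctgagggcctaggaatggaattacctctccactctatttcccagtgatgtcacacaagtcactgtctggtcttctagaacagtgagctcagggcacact
The match begins 195 bases before the start, and 12.03% of 32851 promoters of this length hold these letters on either strand. Of the other motifs searched on both strands, none was found here. These were the core promoter motif TATAAA, which 12.4% of these promoters hold, the motif CCAAT of nuclear factor Y (33.8%) and the Sp1 motif GGGCGG (32.7%). The others were the E-box CACGTG (6.02%), the nuclear receptor half-site AGGTCA (14.02%) and the GATA site AGATAA (9.99%). The motifs were chosen with this sequence in view, and a match is a description of the letters only.

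The comparison of Hyp with WT asks how carriers with concentric hypertrophy differ from littermates without the transgene. The fitted differences were −0.72 ± 0.26 for Ces1d, −0.51 ± 0.19 for Dgat2, −0.37 ± 0.18 for Ces1f and 0.02 ± 0.11 for Stard10. None of the 4 passed. The background was the same, as 0 of 12097 features (0%) passed by limma with Benjamini-Hochberg adjustment, 523 had an unadjusted p under 0.05 and the smallest adjusted p was 0.895. Ces1d ranked 3 and Dgat2 ranked 10 from the bottom of 8106 genes, and Ces1f ranked 32. The values of this contrast were also known when the genes were chosen, so nothing is read from these ranks. Values per set, estimated from all arrays of a set, ran from −1.15 to −0.20 for Ces1d, −0.66 to 0.32 for Ces1f, −1.18 to 0.00 for Dgat2 and −0.35 to 0.31 for Stard10. Single sets weighed on the smaller differences: Dgat2 was at −0.27 without set 2, and Ces1f was at −0.21 without set 2 and −0.66 without set 4. With direct arrays alone and a dye term, Ces1f was at −0.08.

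The comparison of Dil with Hyp asks which genes separate carriers of the same transgene by heart shape. The fitted differences were −1.65 ± 0.26 for Ces1d, −1.13 ± 0.11 for Stard10, −0.91 ± 0.17 for Ces1f and −0.39 ± 0.19 for Dgat2. Ces1d had the lowest value of 8106 genes, Stard10 ranked 2, Ces1f ranked 3 and Dgat2 ranked 56. Ces1d and Stard10 passed, where 20 features or 0.165% passed in either direction and 3 or 0.0248% were lower. Since this contrast also served for the choice, nothing is read from these counts. The Dgat2 difference was −0.64 without set 2 and −0.20 without set 4. The 3 comparisons share their mice, so their values are not independent of each other.

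**Figure D2:**
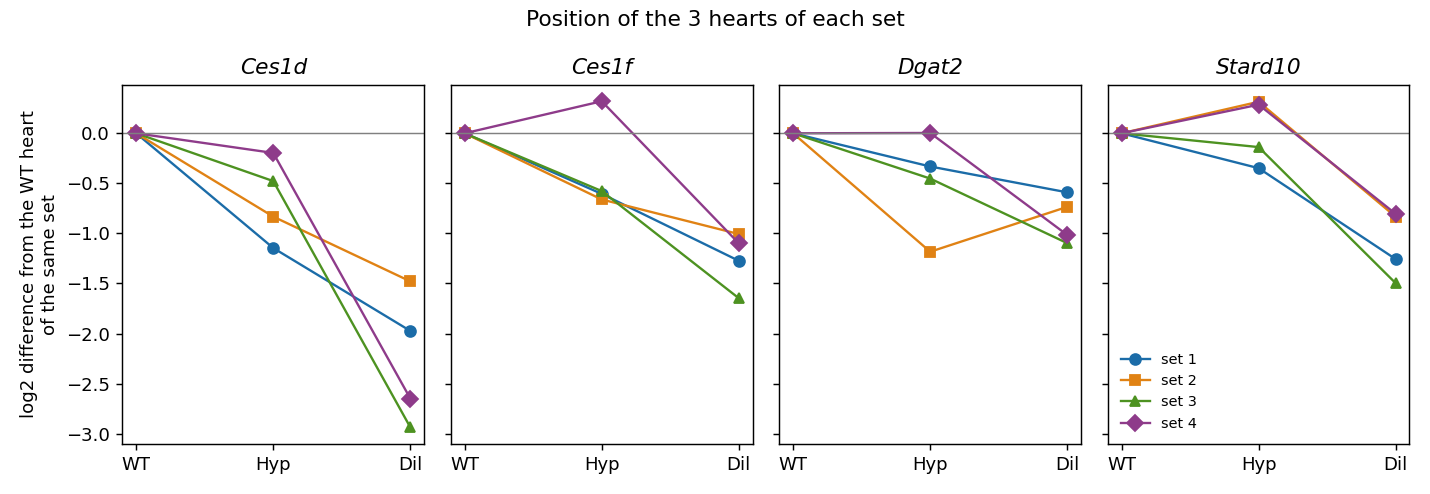
For each set and gene, the Hyp and Dil hearts are placed by their log2 difference from the WT heart of the set, estimated from all arrays of the set by least squares. The Dil heart lies below the WT heart in 4 of 4 sets for each gene, from −1.48 to −2.94 for Ces1d, while the Hyp heart lies at −0.35 to 0.31 for Stard10.

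Values per set show how the 4 genes varied between sets, where set 2 rests on the path through Hyp alone. Each value compares single mice and has no dye term. Its SD thus holds the variation of the mice, the error of measurement and any dye effect together. In Dil minus WT, Ces1d was −1.97, −1.48, −2.94 and −2.65 in sets 1 to 4 (SD 0.66), and Ces1f was −1.27, −1.01, −1.65 and −1.10 (SD 0.28). Dgat2 was −0.59, −0.73, −1.10 and −1.02 (SD 0.24). Stard10 was −1.26, −0.83, −1.498 and −0.81 (SD 0.34). Set 3 held the lowest value of each gene.

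Dgat2 and Stard10 took different courses. Dgat2 lay below Stard10 in Hyp minus WT on 4 of 4 arrays, by −0.12, −1.498, −0.52 and −0.25, and above it in Dil minus Hyp on 4 of 4 arrays, by 0.51, 1.60, 0.51 and 0.10. Between WT and Dil, Dgat2 lay above Stard10 in sets 1 and 3 (0.80 and 0.61) and below it in set 4 (−0.24). The Hyp RNA enters both of the first comparisons with opposite sign, so these gaps are not independent. This difference in course was seen in the values and was not tested.

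The 3 arrays of a set allow a check on the measurement. Without error or a dye effect, Dil minus WT measured directly would equal Hyp minus WT plus Dil minus Hyp. No dye term enters this check, so a gap holds the error and any dye effect of the gene together. The dye term of the fit was 0.14 for Dgat2, −0.13 for Stard10, −0.04 for Ces1d and 0.03 for Ces1f (log2). Its part in the gaps was not tested. For Ces1d the direct value differed from the sum by −0.14, −0.10 and 0.34 in sets 1, 3 and 4, where the median absolute gap over genes was 0.129, 0.281 and 0.298. Ces1f differed by −0.27 in set 3 and −0.28 in set 4. Stard10 differed by 0.26, −0.12 and 0.55. Dgat2 differed by 0.67, 0.49 and 0.46, each time with a smaller difference on the direct array, and its gap in set 1 was larger than or equal to that of 97.8% of 6826 genes. The direct arrays alone thus gave Dgat2 a mean of −0.72 ± 0.31 (SD, n = 3 arrays), against −0.90 in the fit that uses all arrays.

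**Figure D3:**
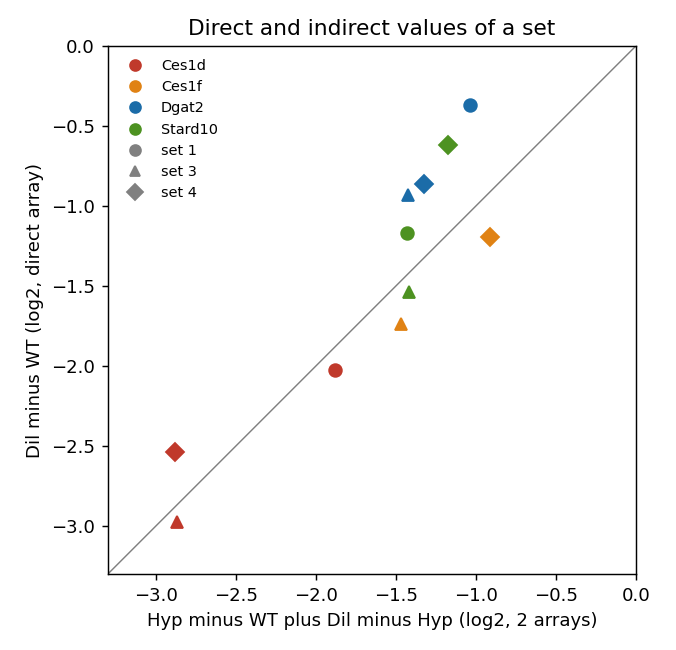
Dil minus WT measured directly (vertical axis, log2) is plotted against the sum of Hyp minus WT and Dil minus Hyp (horizontal axis, log2) in sets 1, 3 and 4, with a colour for each gene and a symbol for each set. Points on the diagonal have equal values, and the 3 points of Dgat2 lie above it by 0.46 to 0.67.

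The fit gives errors that assume 1 ratio of mouse to residual variance for all features. A replicate block fit takes 1 value per set and estimates a spread between sets for each gene, moderated by limma over all features. In this fit 4 features passed in Dil minus WT and 0 of the 4 genes did (limma adjusted p from 0.0688 to 0.0786). Its SEs were 0.24 for Ces1d, 0.11 for Ces1f, 0.10 for Dgat2 and 0.13 for Stard10. These are smaller than in the main fit for Ces1d, Ces1f and Dgat2 and larger for Stard10. Without set 3, 0 features of any kind passed in Dil minus WT, and so 0 of the 4 did. Without set 4, 12 features passed, and of the 4 only Ces1f and Stard10 were among them. Without set 3 the fitted differences were still −2.11 for Ces1d, −1.14 for Ces1f, −0.81 for Dgat2 and −0.94 for Stard10. In Dil minus Hyp, 0 features of any kind passed under the replicate block and without set 1, set 3 or set 4. With the realigned array left out 7 features passed, and with the arrays scaled to the same spread 28 did. Of the 4 genes, Stard10 alone was among them both times.

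The other lipid genes are described by their counts. Without the 4, 104 genes of 8 lists of lipid genes were measured. Of these, 0 were higher and 1 (0.962%) was lower in Dil than in WT at the threshold, beside 2.12% of all features in either direction and 1.14% lower, so the share is near the background and is not read as a result about the lists. The median of the 104 was −0.02, and 58.7% lay below 0, beside 48.9% of all features. None of the 104 passed in Hyp minus WT or in Dil minus Hyp.

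**Figure D4:**
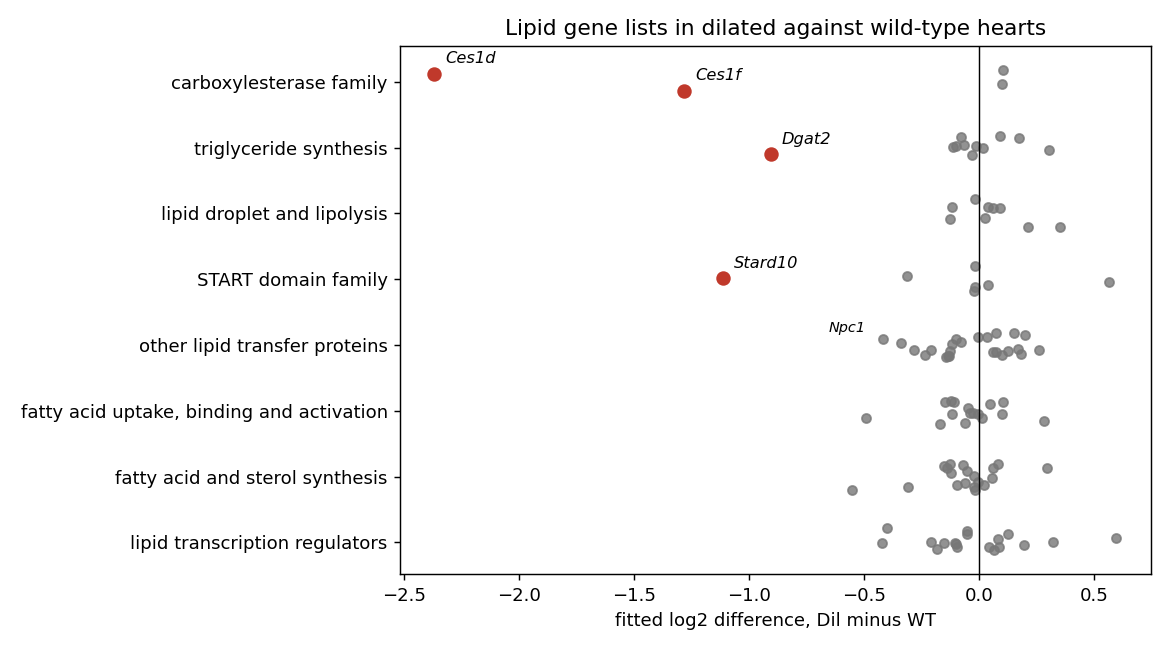
The fitted log2 difference of Dil minus WT is shown for each measured gene of 8 lipid gene lists, with 1 point per gene, the 4 selected genes in red and other genes in grey. The red points lie between −2.37 and −0.90, and the grey points lie between −0.55 and 0.60.

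The gene that passed was Npc1, which exports cholesterol from lysosomes, at −0.42 ± 0.08 (limma, Benjamini-Hochberg adjusted p = 0.0312). It is measured by 3 spots, its values per set were −0.25, −0.34, −0.44 and −0.58, and Dil was lower than WT in 4 of 4 sets. It passed under 7 of 14 alternative settings, with limma adjusted p from 0.0206 to 0.293. These 7 include the setting that required values on at least 6 arrays, which gave the same result as the main fit. It did not pass without set 1, 2, 3 or 4 (adjusted p = 0.0682, 0.0566, 0.293 and 0.220 by limma), under the replicate block (0.144), with direct arrays alone (0.230) or with arrays scaled (0.0606), and none of its spots passed alone.

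Among the 10 other measured genes of triglyceride synthesis, none passed. Dgat1, the enzyme that catalyses the same step as Dgat2 from an unrelated protein family, was at 0.17 ± 0.11 in Dil minus WT, with −0.00, 0.22, −0.03 and 0.51 in sets 1 to 4. Lpin2, a phosphatidate phosphatase that makes diacylglycerol, was at 0.30 ± 0.12, and Agpat3, an acyltransferase of an earlier step, at −0.10 ± 0.06. The values of Dgat1 lay above those of Dgat2 in each set.

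None of the 9 genes of lipid droplets and lipolysis passed, and their median was 0.04. Those with the smallest unadjusted p were Plin3, a droplet coat protein, at 0.35 ± 0.23, Aup1, a droplet and reticulum protein, at 0.21 ± 0.15, and Bscl2, the seipin of droplet formation, at −0.12 ± 0.10. Lipe, the hormone-sensitive lipase, was at −0.13 ± 0.13, and Pnpla2, the first lipase of droplet triglyceride, was at 0.09 ± 0.13. No measured hydrolase of this list had a difference of the size seen for Ces1d.

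Among the 6 other START domain genes none passed, with a median of −0.02. Star, which brings cholesterol into mitochondria, was at 0.57 ± 0.15, with 0.12, 0.01, 0.82 and 1.01 in sets 1 to 4. Stard7, a phosphatidylcholine carrier to mitochondria, was at −0.31 ± 0.15. The 24 other lipid transfer genes had a median of −0.04. After Npc1 came Osbpl11, an oxysterol-binding protein, at −0.24 ± 0.07 and Mttp, which loads triglyceride onto lipoproteins, at 0.17 ± 0.05, neither of which passed.

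The 16 genes of fatty acid uptake, binding and activation had a median of −0.04 and none passed. Dbi, the acyl-CoA-binding protein, was at −0.49 ± 0.14 (adjusted p = 0.097 by limma), below 0 in each set. Gpihbp1, which anchors lipoprotein lipase on capillaries, was at 0.28 ± 0.11, and Slc27a2, a fatty acid transporter, at −0.17 ± 0.07. The 19 genes of fatty acid and sterol synthesis had a median of −0.05. Mlycd, which degrades malonyl-CoA and so relieves the block on fatty acid oxidation, was at −0.55 ± 0.14 (adjusted p = 0.071), Fdft1, the squalene synthase, at −0.31 ± 0.09, and Fads1, a fatty acid desaturase, at 0.30 ± 0.10.

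The 18 measured regulators of lipid genes had a median of −0.05 and none passed. Cebpd, a C/EBP transcription factor, was at 0.60 ± 0.20, Rxrg, a partner of PPAR receptors, at −0.40 ± 0.15, and Ppargc1b, a coactivator of mitochondrial genes, at −0.42 ± 0.17. Ppargc1a, its better-known relative, was at −0.21 ± 0.17.

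Markers of other cells the tissue could hold were read beside these values, since Ces1d and Dgat2 are known from adipose tissue and liver. None of the markers in 8 lists passed in Dil minus WT, where 2.12% of all features passed in either direction. With so few markers, nothing is read from this count. Of 10 adipocyte markers 7 were measured, with a median of −0.13. Their medians per set were −0.29, −0.04, −0.01 and 0.01 in sets 1 to 4. Ucp1, the uncoupling protein of brown fat, was at −2.27 in set 1 and between −0.14 and 0.01 in the others. Adipoq, the adiponectin gene, was at −0.78, 0.36, −0.13 and −0.19 in sets 1 to 4. The remaining markers in set 1 were Lipe at −0.44, Retn at −0.29, Plin1 at −0.11, Fabp4 at −0.06 and Lep at 0.03. The part of adipose tissue in the Ces1d values was not tested. In the fit, leptin (Lep) was at 0.09 ± 0.09, Plin1 at 0.04 ± 0.07 and Retn at −0.34 ± 0.12. Ucp1 was at −0.64 ± 0.33, Adipoq at −0.22 ± 0.15, Lipe at −0.13 ± 0.13 and Fabp4 at −0.06 ± 0.14.

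The 6 measured hepatocyte markers had a median of −0.04, and albumin (Alb) was at −0.03 ± 0.12. The 3 cardiomyocyte markers had a median of −0.33, with Atp2a2, which pumps calcium back into its store, at −0.47 ± 0.16, Ryr2, the channel that releases it, at −0.33 ± 0.12 and titin (Ttn) at 0.08 ± 0.07. The 8 fibroblast markers had a median of 0.21, with medians per set of 0.01, −0.01, 0.44 and 0.36. They differed among themselves, from 0.82 ± 0.26 for Fn1 to −0.20 ± 0.10 for Pdgfra. Smooth muscle markers (4 genes) had a median of −0.24, endothelial markers (6) of −0.01, macrophage and leukocyte markers (3) of 0.30 and erythrocyte markers (2) of 0.22. The part of a changed mix of cells in the values of the 4 genes was not tested, and the ratios do not show whether a marker is present.

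The genes whose ratios followed the 4 most closely over the arrays were named by the Pearson correlation, among 1875 genes with a standard deviation of at least 0.3. The points share mice, sets and dyes, and each correlation is a description across 10 or 11 arrays. For Ces1d they were Tcaim (0.982), a mitochondrial protein, Hrc (0.981), which binds calcium in the sarcoplasmic reticulum, Lgals4 (0.973), a galectin, Ech1 (0.972), an enzyme of fatty acid oxidation, and Fh1 (0.972), the fumarase of the TCA cycle. For Ces1f they were Tcaim (0.967), Ces1d (0.967), Lgals4 (0.966), Phkg1 (0.962), a subunit of phosphorylase kinase, and Gpr22 (0.955), an orphan receptor.

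For Dgat2 the closest were Rmc1 (0.969), Cpt2 (0.958), which readies fatty acids for oxidation inside mitochondria, Npc1 (0.955), Lamb3 (0.954), a laminin chain, and Pex11a (0.953), a peroxisome protein. For Stard10 they were the growth factor gene Igf2 (0.939), Gpt2 (0.907), an alanine aminotransferase, Gpr22 (0.906), Qrsl1 (0.906) and Phkg1 (0.901). Ces1f was 7 in the order of Ces1d, and Ces1d was 2 in the order of Ces1f. In the order of Stard10, Ces1f was 7 and Ces1d was 8, so such nearness was not particular to the paralogs. The ratios are those that served for the choice of the genes, so nothing is read from these ranks. Stard10 came 235 in the order of Dgat2 (correlation 0.674). The sizes differed even where the patterns were alike: Tcaim was at −0.59 ± 0.08 in Dil minus WT, against −2.37 for Ces1d.

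Ces1d and Ces1f lie in a cluster of esterase genes on chromosome 8, and Dgat2 and Stard10 lie on chromosome 7. Among the 5 protein-coding genes on each side in the RefSeq order of GRCm38.p6, 4 of 10 neighbours of Dgat2 were measured, at −0.03 to 0.30, and 6 of 10 of Stard10, at −0.21 to 0.23, and none of them passed. The low values of Dgat2 and Stard10 were thus not shared by the adjacent genes with a spot. Next to Dgat2 lies Mogat2, an acyltransferase of the same family, at −0.03 ± 0.12. In the esterase cluster the measured neighbours that passed were Ces1d and Ces1f themselves, and Gnao1, a G protein subunit beyond its end, was at 0.58 ± 0.19 and did not pass.

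At the threshold of the fit in Dil minus WT, the genes just inside were Klf16 (0.40 ± 0.09) and Grk5 (0.32 ± 0.07), and those just outside were Myh10 (0.46 ± 0.11) and Cox6c (−0.63 ± 0.15). Dgat2 was the closest of the 4 genes to this threshold, and it no longer passed when any 1 of the 4 sets was left out, under the replicate block, with direct arrays alone, when the realigned array was left out, when the arrays were scaled to the same spread, or when each spot was a feature of its own (limma adjusted p = 0.0504). Its difference and its error were both larger than those of the genes at the threshold.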

How the data were processed

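Per the labels, total RNA of each heart was labelled with Cy3 or Cy5 by oligo(dT)-primed reverse transcription and hybridised, 2 hearts at a time, to slides with a mouse cDNA clone set printed by 32 pins. The authors deposited 1 log2 ratio per spot and array, for 17207 of 17664 spots on each. For the base of the logarithm, the background correction and the normalization, the answer is not given in the sources used here. Base 2 was assumed, and with natural logarithms the folds would be larger. Column medians lay between −0.0114 and 0.0068. The number of arrays limits the precision. Each mouse is a separate animal.

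The rows of the WT and Hyp array of set 1 were displaced by 8 printing blocks, since 24 of 24 blocks correlated best there (0.504 to 0.745) with the ratio implied by the set's remaining 2 arrays. They were moved back, which raised the correlation over named spots from 0.492 to 0.791 and left 4254 spots blank, where other arrays had 16471 values.

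Spots were named through the platform annotation: 12563 had 1 symbol, 412 several, 3953 were not listed and 736 were control spots, which were left out. Spots of a gene were averaged, and a feature needed values on 9 arrays. Both carrier groups against WT and the dye were fitted by generalised least squares with mice as random effects (variance ratio 0.3) and moderated with limma 3.58.1 (R 4.3.3). Benjamini-Hochberg adjustment covered 12097 features, with a threshold of 0.05. The fit was also run on simulated data that had 1 variance ratio for all features. That run shares this assumption of the fit and so cannot test it. The members, the gene lists and the markers were chosen with earlier results of these data known. Named were the 4 genes, the list genes that passed and otherwise up to 3 per list with the smallest unadjusted p, and the 5 genes most like each of the 4; Lipe, Pnpla2, Ppargc1a, the neighbours and the markers were added after their values were seen. The alternatives (15) changed the realignment, the sets used, the dye term, scaling, centring of printing blocks, mouse effects, the replicate block, direct arrays alone, averaging of spots and the number of arrays required. Arrays of a set compare mice of the same number, so differences between sets cancel in each ratio, and the labels do not say what a number shares.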

Additional observations from a re-analysis of the deposited data

Results flagged for a closer look

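Ces1f in Hyp minus WT stood apart in set 4, at 0.32, while sets 1, 2 and 3 were at −0.61, −0.66 and −0.58. Its gap to the nearest other set, divided by the range of the 4 values, was 0.914, above Dixon's critical value for 4 samples. Of 12 combinations of gene and comparison this was the single one to exceed it, and chance exceeds it in about 1 in 20 groups. The set 1 value of Ces1f rests on the other 2 arrays of that set. Without set 4 the fitted Ces1f difference in Hyp minus WT was −0.66, against −0.37 with all sets.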

How the results depend on the processing

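The differences of the 4 genes in Dil minus WT and in Dil minus Hyp kept their sign under all 15 alternatives (14 for Ces1f, which has no value where values on all arrays are required). The alternative that required values on at least 6 arrays gave the 4 genes the same values as the main fit. In Dil minus WT they ran from −2.54 to −1.98 for Ces1d, −1.38 to −1.07 for Ces1f, −0.995 to −0.76 for Dgat2 and −1.25 to −0.94 for Stard10. Stard10 in Hyp minus WT, near 0, ran from −0.08 to 0.10. Calls depended on the setting, and the causes were not tested. Features passing in Dil minus WT (257) were 159 with the realigned array left out, 108 with arrays scaled, 4 under the replicate block, 7 with direct arrays alone, and 0 to 121 when 1 set was left out. In Dil minus Hyp (20) they were 41 with the column as deposited, 7 with that array left out, 43 without the dye term, 52 without mouse effects, 0 under the replicate block, 0 with direct arrays alone, 34 with values on all arrays and 0 to 15 without 1 set. Of the 4 genes, 0 passed in Dil minus WT under the replicate block, 1 with direct arrays alone (Ces1d) and 0 to 3 without 1 set. In Dil minus Hyp, 1 passed with the realigned array left out and 1 with arrays scaled (Stard10 both times), 0 under the replicate block or with direct arrays alone, and 0 to 2 without 1 set. The signal of a spot over its background was not used here.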
